A study of Mus musculus with 360 samples.

Results

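The Mouse S1500+ panel carried 45 probes for 35 genes of the proteasome and of ubiquitin conjugation and removal, among 3154 probes for 2756 genes. The members were every probe whose gene symbol began with Psma to Psmg, Ube1 to Ube4, Uba, Usp or Cul followed by a digit, without the interferon-induced Usp18. By role they were 2 probes for 2 ATPases and 8 probes for 6 other subunits of the 19S regulatory particle, 1 probe each for the alpha and beta rings of the 20S core, and 8 probes for 5 immunoproteasome genes. A further 6 probes measured 5 assembly chaperones and other regulators, 9 probes 8 ubiquitin-conjugating (E2) enzymes, 3 probes 2 ubiquitin ligases of the Ube3 family, 2 probes the cullin Cul1, and 5 probes 4 deubiquitinases. Psmc3ip matched by name only: it encodes a partner of the meiotic recombinase and is not a proteasome subunit. Psma4, Psmb5, Psmd1, Uba7, Usp2 and Cul3 were not analysed here.

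The proteasome is a barrel-shaped protease, the 20S core, capped by the 19S particle that recognises ubiquitin-tagged proteins, unfolds them and feeds them in. The tag is put on by a relay of activating (E1), conjugating (E2) and ligating (E3) enzymes, and deubiquitinases take it off. In cells exposed to interferon the catalytic beta subunits are replaced by Psmb8, Psmb9 and Psmb10, and the core is capped by Psme1 and Psme2, which favours peptides suited to antigen presentation. Some E2 enzymes serve 1 process: Ube2c works with the anaphase-promoting complex to end mitosis, Ube2t mono-ubiquitinates FANCD2 in DNA crosslink repair, and Ube2l6 transfers the interferon-induced modifier ISG15.

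Female B6D2F1/Crl (BDF-1) mice, 9 weeks old, were exposed to 1,2-dichlorobenzene (1,2-DCB) at 0, 1, 10, 30, 100 or 250 ppm, or to 1,4-dichlorobenzene (1,4-DCB) at 0, 1, 10, 50, 150 or 400 ppm. Both carry a pair of chlorines on a benzene ring, next to each other in 1,2-DCB and opposite each other in 1,4-DCB. Heart, kidney, left liver lobe, lung and ovary were taken on study day 5, and RNA was counted by TempO-Seq, in which pairs of probes ligated on a target RNA are sequenced. Each of the 326 libraries used was 1 tissue of 1 mouse, from 37 mice of the 1,2-DCB series and 35 of the 1,4-DCB series, and each compound had its own 0 ppm mice. In heart and ovary the controls numbered 10 for each compound and the exposed groups 5, or 7 at 250 ppm. In lung they were 10 and 10, with 4 mice at 1 ppm 1,2-DCB, 6 at 250 ppm and 5 in every other group. Liver had 9 controls for 1,2-DCB, then 2, 4, 5, 5 and 6 mice with rising concentration, and 7 controls for 1,4-DCB, then 5, 4, 5, 4 and 5. Kidney had 5 controls, then 4, 4, 3, 2 and 6 mice, and 6 controls, then 4, 4, 4, 4 and 5.

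Depth ran from 7817849 to 29379812 counts per library in heart, 8023374 to 23485676 in kidney, 14116843 to 40289222 in liver, 12446510 to 46480385 in lung and 4341679 to 13091634 in ovary. The members took a median of 0.36% of the counts in heart and in liver, 0.58% in kidney, 0.57% in lung and 0.92% in ovary. Summed hepatocyte markers were at 138691 to 309087 CPM (counts scaled to a common library total) in liver and at most 25174 elsewhere. Cardiomyocyte markers in heart (53222 to 368763), the tubule transporter Slc22a6 in kidney (779 to 2789) and ovary markers in ovary (4947 to 24280) were likewise far above their highest values elsewhere, 832, 2.34 and 46.8. No lung epithelium marker of the list was among the probes analysed here, so lung was checked only by its leukocyte markers (31579 to 77107). Markers of other tissues were not absent from lung. Hepatocyte markers were at 8761 to 25174 CPM there and cardiomyocyte markers at 44.4 to 832, the highest outside liver and heart. CPM are scaled within each tissue, and levels of different probes are not compared with each other.

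Promoter windows from RefSeq on GRCm38.p6, from 250 bases before to 50 after the first transcribed base, were at hand for 32 of the 35 genes. They are shown for the 3 members that rose in liver together with cell cycle genes and for the immunoproteasome subunit that fell in liver and lung. Capitals in the first 3 mark the CCAAT box, read as CCAAT on either strand, and the cell cycle homology region, read as TTTGAA on either strand. In Psmb8 they mark the gamma-interferon activated site, read as TTCNNNGAA.
Ube2c, chr2:164769679-164769978, plus strand: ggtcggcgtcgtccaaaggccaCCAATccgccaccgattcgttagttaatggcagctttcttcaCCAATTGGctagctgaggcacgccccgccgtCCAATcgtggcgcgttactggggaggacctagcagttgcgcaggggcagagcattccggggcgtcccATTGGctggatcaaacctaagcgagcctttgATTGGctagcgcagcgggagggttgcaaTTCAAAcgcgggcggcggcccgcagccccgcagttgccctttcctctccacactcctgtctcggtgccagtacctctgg
Ube2t, chr1:134962315-134962614, plus strand: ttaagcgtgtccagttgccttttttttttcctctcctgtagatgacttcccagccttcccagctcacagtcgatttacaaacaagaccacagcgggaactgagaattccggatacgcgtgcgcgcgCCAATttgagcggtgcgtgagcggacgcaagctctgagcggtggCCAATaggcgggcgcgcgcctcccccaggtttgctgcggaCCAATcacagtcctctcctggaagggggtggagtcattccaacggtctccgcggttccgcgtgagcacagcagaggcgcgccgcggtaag
Psmc3ip, chr11:101095386-101095685, minus strand: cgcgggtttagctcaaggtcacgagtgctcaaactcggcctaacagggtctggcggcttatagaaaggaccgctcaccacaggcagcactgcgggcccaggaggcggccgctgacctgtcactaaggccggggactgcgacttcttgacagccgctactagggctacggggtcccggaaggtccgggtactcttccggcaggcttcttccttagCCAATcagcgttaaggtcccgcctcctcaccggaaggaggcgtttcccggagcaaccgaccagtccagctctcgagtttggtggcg
Psmb8, chr17:34197945-34198244, plus strand: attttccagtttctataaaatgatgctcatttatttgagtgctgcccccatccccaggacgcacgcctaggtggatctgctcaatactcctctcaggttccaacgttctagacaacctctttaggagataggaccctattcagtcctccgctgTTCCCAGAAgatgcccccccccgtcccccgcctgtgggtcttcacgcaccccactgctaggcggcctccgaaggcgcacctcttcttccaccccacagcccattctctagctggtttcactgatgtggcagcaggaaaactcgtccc
Ube2c held 6 CCAAT matches, of which 2 overlap on opposite strands, and 1 cell cycle homology match from 29 to 24 bases before the start. Ube2t held 3 CCAAT matches and Psmc3ip 1. Of all 32851 windows of this length, 37.4% held a CCAAT match and 17.9% a cell cycle homology match, against 12 and 3 of the 32 member genes. The units differ here and below: a gene counted if any of its windows held a match, and the 32 genes had 38 windows. The Psmb8 match lies 97 to 89 bases before the start; 8.30% of all windows and 4 member genes held one. The windows of Psmb9, Psmb10 and Ube2l6 held neither this match nor the interferon-stimulated response element (GAAA, any 2 bases, GAAA), which 3.44% of all windows and 4 member genes held. The antioxidant response element core TGACNNNGC was in 12.4% of all windows and in those of 5 member genes. All motifs were read on both strands. These matches describe letters in a window and say nothing of binding.

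Changes were tested in each tissue against the same compound's controls with edgeR's quasi-likelihood test, and a probe was called at a Benjamini-Hochberg adjusted p under 0.05 over all probes tested; 43 member probes were tested in each tissue, and 44 in ovary. Changes are on the log2 scale with their standard errors. The concentrations of 1 compound share their controls and are not independent comparisons. Of the 45 probes, 27 from 23 genes were called in at least 1 of 50 comparisons, and 14 comparisons held a called member. The mice exposed to 250 ppm 1,2-DCB had the most in every tissue but heart, where 150 ppm 1,4-DCB gave 5: 17 probes in liver (9 higher, 8 lower), 14 in lung, 5 in ovary and 4 each in kidney and heart. At 400 ppm 1,4-DCB there were 9 in liver, 1 in heart and 0 in lung, kidney and ovary. In liver the members' share called, 39.5% at 250 ppm and 20.9% at 400 ppm, was below that of all probes, 49.8% and 31.6%. In lung at 250 ppm both shares were 32.6%.

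**Figure D1:**
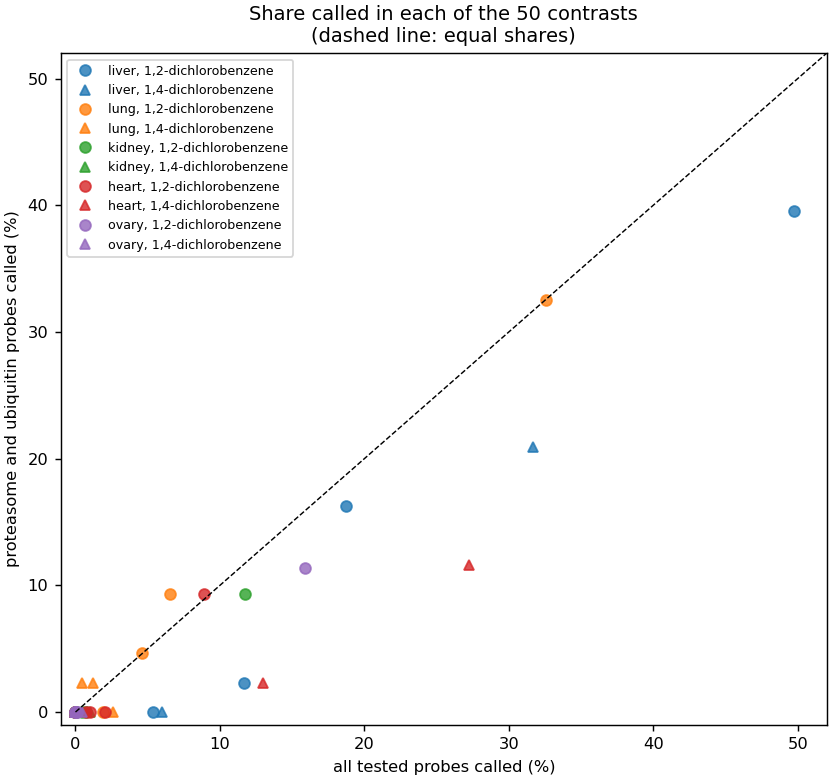
Share of member probes called (vertical axis, %) against the share of all tested probes called (horizontal axis, %) in each of the 50 comparisons of an exposed group with its controls, coloured by tissue, with circles for 1,2-DCB, triangles for 1,4-DCB and a dashed line of equal shares. Liver at 250 ppm 1,2-DCB lies at 39.5% of members and 49.8% of all probes, and lung at 250 ppm at 32.6% on both axes.

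In liver at 250 ppm 1,2-DCB, Ube2c, Ube2t and Psmc3ip rose most, while both Cul1 probes, both Psmd4 probes, Psmb8, Psmb10, Psmd9 and 1 Psmd12 probe fell. Of all probes, 25.1% were called higher and 24.6% lower, and the median change was -0.11 over the members and -0.02 over all probes. In a piece of tissue, fewer cells of a type and less RNA per cell cannot be told apart.

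Among the E2 enzymes, Ube2c was at 0 to 1.98 CPM in the 9 controls (median 0.345) and at 7.75 to 29.02 in the 6 exposed livers (median 20.3). All 6 exposed livers lay above every control. Its change was 5.19 ± 0.63 (adjusted p = 4.1e-10, edgeR). Ube2t ranged from 1.31 to 3.49 CPM in controls (median 2.07) and from 20.4 to 40.7 in exposed livers (median 24.6), again without overlap. Its change was 3.62 ± 0.33 (adjusted p = 4.17e-14, edgeR). Ube2d3, which encodes an E2 used by many ligases, had 6.86 to 13.6 CPM in controls (median 9.45) and 11.9 to 18.5 in exposed livers (median 16), with overlap at the edge. It rose by 0.70 ± 0.15 on 1 of its 2 probes (adjusted p = 0.000122, edgeR). Ube2l6 was not called, with a change of -0.11 and a 95% interval from -0.32 to 0.10.

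Psmc3ip was at 1.198 to 2.62 CPM in controls (median 2.02) and at 8.18 to 22.2 in exposed livers (median 11.97). The groups did not overlap, and the change was 2.77 ± 0.23 (adjusted p = 1.47e-15, edgeR). Of 33 probes tested from a list of 31 cell cycle genes, 31 were higher and 0 lower in the same livers, with a median change of 4.73. The part of dividing cells in the changes of these 3 members was not tested.

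Of the 19S particle, Psmd4, which encodes a ubiquitin receptor, fell on both probes. The more abundant probe went from 101 to 122.7 CPM in controls (median 107.99) to 73.1 to 94.3 (median 80.5), with every exposed liver below every control. Its change was -0.39 ± 0.08 (adjusted p = 2.38e-05, edgeR), and that of the other probe -0.53 ± 0.17. The call of the other probe ended in 0 of 15 fits without 1 mouse, but it ended under at least 1 other alternative. Psmd12, a lid subunit, fell by 0.28 on 1 of 2 probes. The lid deubiquitinase Psmd14 was not called, with a change of 0.02 and an interval from -0.21 to 0.24, nor was the ATPase Psmc4 (-0.01, interval -0.13 to 0.12).

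The immunoproteasome genes moved in both directions. Psmb10 fell by 0.35 and Psmb8 by 0.30, whereas the cap gene Psme2 rose by 0.33 ± 0.09 (adjusted p = 0.00131, edgeR). Psme2 was at 60.7 to 84.6 CPM in controls (median 72.3) and 71.2 to 109.005 in exposed livers (median 90.5), of which 5 of 6 lay above every control. Psmb8 had 465 to 890 CPM in controls (median 615) and 361 to 626 in exposed livers (median 505), and the groups overlapped. Its highest control was mouse 4, and without that mouse the change was -0.22 with an adjusted p of 0.0713 (edgeR), so that the call ended. It also ended without exposed mouse 501 or 506R, with adjusted p of 0.0551 and 0.0625 (edgeR). In these livers 2 of 16 interferon response genes rose and 6 fell, and summed leukocyte markers were at 336 to 1922 CPM in controls (median 447) and 312 to 1480 in exposed livers (median 990); their part in these changes was not tested.

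Among the regulators, the chaperone Psmg1 rose on both probes. Its change was 0.37 ± 0.12 on the more abundant probe (mean 194.6 counts) and 1.10 ± 0.33 on a scarce one (mean 18.2 counts). The proteasome inhibitor Psmf1 rose by 0.22 ± 0.07, and the base chaperone Psmd9 fell by 0.30 ± 0.08. Cul1, the scaffold of SCF ubiquitin ligases, was at 150.7 to 188 CPM in controls (median 161) and 120 to 135.4 in exposed livers (median 130.5) on 1 probe. Every exposed liver was below every control, and the change was -0.33 ± 0.05 (adjusted p = 4.01e-07, edgeR); the other probe fell by 0.21. The deubiquitinase Usp1, which acts on FANCD2, rose by 0.45 ± 0.13 from a control median of 29.4 CPM to 36.6, with overlapping groups. The Usp1 call ended without mouse 506R, and that of the more abundant Psmg1 probe (0.37) without mouse 505. Those of Psmf1, Psmd9 and the other Cul1 probe ended in 0 of 15 fits without 1 mouse, but each ended under at least 1 other alternative.

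**Figure D2:**
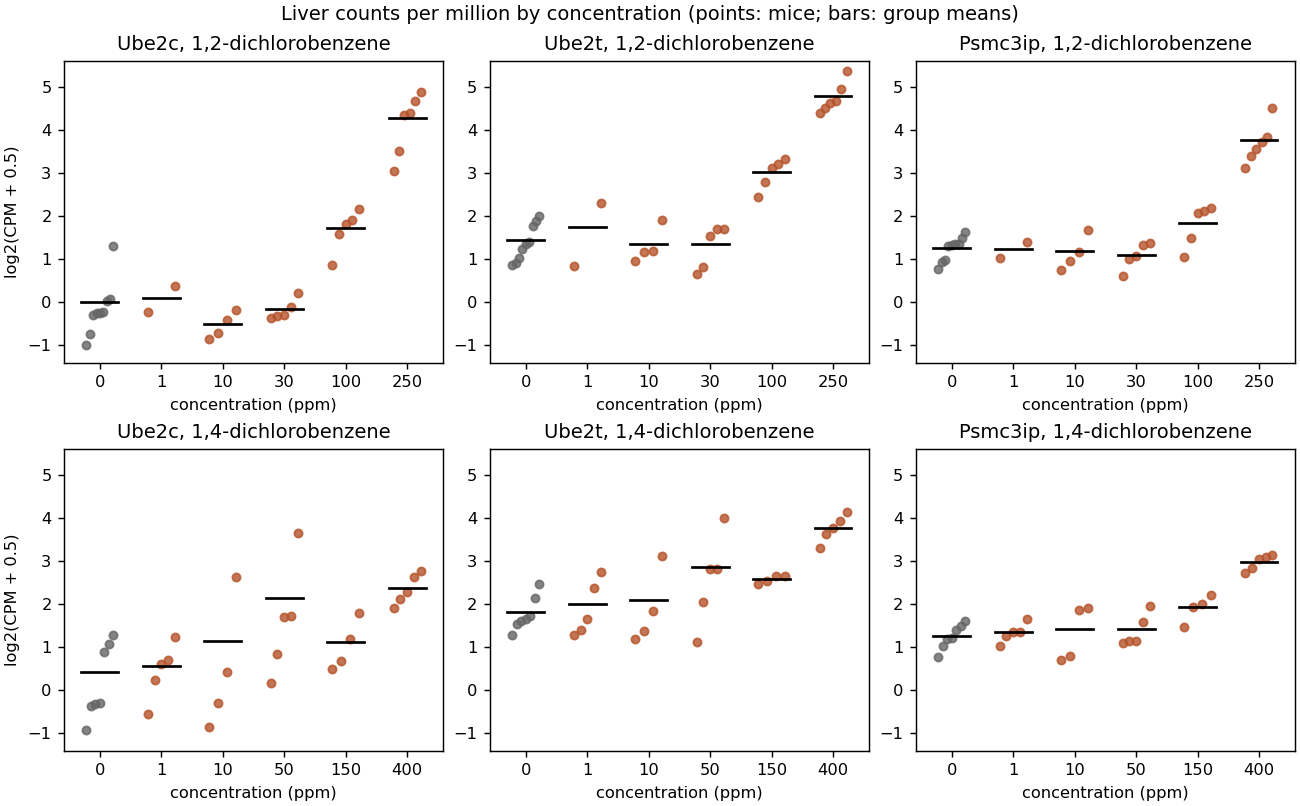
Liver levels of Ube2c, Ube2t and Psmc3ip in each mouse (vertical axis, log2 of CPM + 0.5) by concentration in ppm (horizontal axis, categories) for 1,2-DCB and 1,4-DCB; points are mice (controls grey, exposed orange) and bars group means. At 250 ppm 1,2-DCB all 6 mice, and at 400 ppm 1,4-DCB all 5, lie above every control of their compound for each gene, and 1 mouse at 50 ppm 1,4-DCB stands high at 12.01 CPM of Ube2c.

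At 100 ppm 1,2-DCB 7 members were called in liver (6 higher, 1 lower) where 18.8% of all probes were. Ube2t was at 8.76, 6.46, 4.92, 8.23 and 9.61 CPM, above every control, and rose by 1.78 ± 0.34 (adjusted p = 8.3e-05, edgeR). Ube2c was at 3.96, 3.26, 1.33, 3.02 and 2.52 CPM, and 4 of 5 livers lay above every control, for a change of 2.44 ± 0.64 (adjusted p = 0.00418, edgeR). Psmc3ip was at 3.73, 4.03, 1.59, 2.30 and 3.83 CPM, overlapping the controls, and rose by 0.70 ± 0.25 (adjusted p = 0.0375, edgeR), a call that ended in 4 of 6 fits without control mouse 4 or an exposed mouse. The calls of Ube2c and Ube2t held in all 6. Psmf1 and both Psmg1 probes also rose, and 1 Cul1 probe fell by 0.20. The call of the more abundant Psmg1 probe ended in 6 of these 6 fits and that of the other in 1, without mouse 404. Those of Psmf1 and Cul1 ended in 0, but the Psmf1 call ended under at least 1 other alternative. At 30 ppm 11.7% of all probes were called and 1 member, Psmb8, which fell by 0.37; without control mouse 4 its adjusted p was 0.0908 (edgeR), and the call ended in 4 of the 6 such fits. At 10 and 1 ppm 0 members were called by edgeR and by DESeq2, where 5.34% and 0% of all probes were called by edgeR. At an unadjusted p under 0.05 there were 3 and 1 of 43 members, and 471 and 54 of all 2601 probes.

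In liver at 400 ppm 1,4-DCB, Ube2c, Ube2t and Psmc3ip rose again, 5 proteasome genes (Psmc4, Psmd8, Psmb10, Psme1 and Psmf1) rose by less, and 1 Cul1 probe fell. Of all probes, 18% were called higher and 13.6% lower, and the median change was 0.02 over the members and -0.03 over all probes. Ube2t was at 14.7, 11.8, 13.2, 17.1 and 9.38 CPM, against 1.94 to 5.03 in the 7 controls (median 2.66). Ube2c was at 4.40, 3.89, 6.36, 5.73 and 3.26 CPM, against 0.0326 to 1.96 (median 0.321), and Psmc3ip at 7.77, 6.14, 6.65, 8.34 and 8.01, against 1.204 to 2.53 (median 1.83). None of the 3 overlapped with its controls. The changes were 2.10 ± 0.35 for Ube2t (adjusted p = 2.22e-06), 2.47 ± 0.64 for Ube2c (adjusted p = 0.00181) and 1.94 ± 0.25 for Psmc3ip (adjusted p = 7.18e-09, all by edgeR). In these livers 30 of 33 cell cycle probes were higher and 1 lower, with a median change of 3.11; their part in the members' changes was not tested.

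Psmd8, a lid subunit, was at 749, 828, 845, 689 and 772 CPM against 500 to 699 in controls (median 575), and 4 of 5 livers lay above every control. It rose by 0.41 ± 0.08 (adjusted p = 2.32e-05, edgeR). Psme1 was at 40.9, 36.98, 36.8, 36.4 and 35.4 CPM against 22.8 to 30.8 (median 25.9), and rose by 0.52 ± 0.12 (adjusted p = 0.000575, edgeR). Psmf1 was at 189, 220, 218, 193 and 203 CPM against 137.08 to 172 (median 149.004), and rose by 0.44 ± 0.08 (adjusted p = 5.66e-06, edgeR). Neither Psme1 nor Psmf1 overlapped with controls. Psmb10 rose by 0.37 ± 0.12 (adjusted p = 0.0118, edgeR), but its adjusted p was 0.0607 without exposed mouse 504. Cul1 was at 144.6, 145.03, 135.1, 127.9 and 135.1 CPM on the called probe, below all controls (148.9 to 181, median 158), a change of -0.23 ± 0.06. While Psme1 and Psmb10 rose, 12 of 16 interferon response genes tested fell and 0 rose, with a median change of -0.66.

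Below 400 ppm of 1,4-DCB, 0 members were called in liver by edgeR at 1, 10, 50 and 150 ppm, with 0, 0, 3 and 4 at an unadjusted p under 0.05, where 0%, 0%, 0.769% and 5.96% of all probes were called. DESeq2 also called 0 members at each. Single mice stood high: at 50 ppm mouse 303 had 12.01 CPM of Ube2c and 15.6 of Ube2t, and at 10 ppm mouse 203 had 5.65 and 8.21. The highest concentrations of the isomers differ, so their values stand side by side only. Of the 17 probes called in liver at 250 ppm 1,2-DCB and the 9 at 400 ppm 1,4-DCB, 5 moved the same way in both (29.4% of the first list and 55.6% of the second): Ube2c, Ube2t, Psmc3ip, Psmf1 and 1 Cul1 probe. Psmb10 was lower in the first and higher in the second, but both of its calls ended under at least 1 alternative. Without 1 mouse, the first call ended in 0 of 15 fits and the second in 1 of 12. Of all probes, 610 were called in the same direction in both (47.1% of the 1294 and 74.1% of the 823) and 33 in opposite directions.

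**Figure D3:**
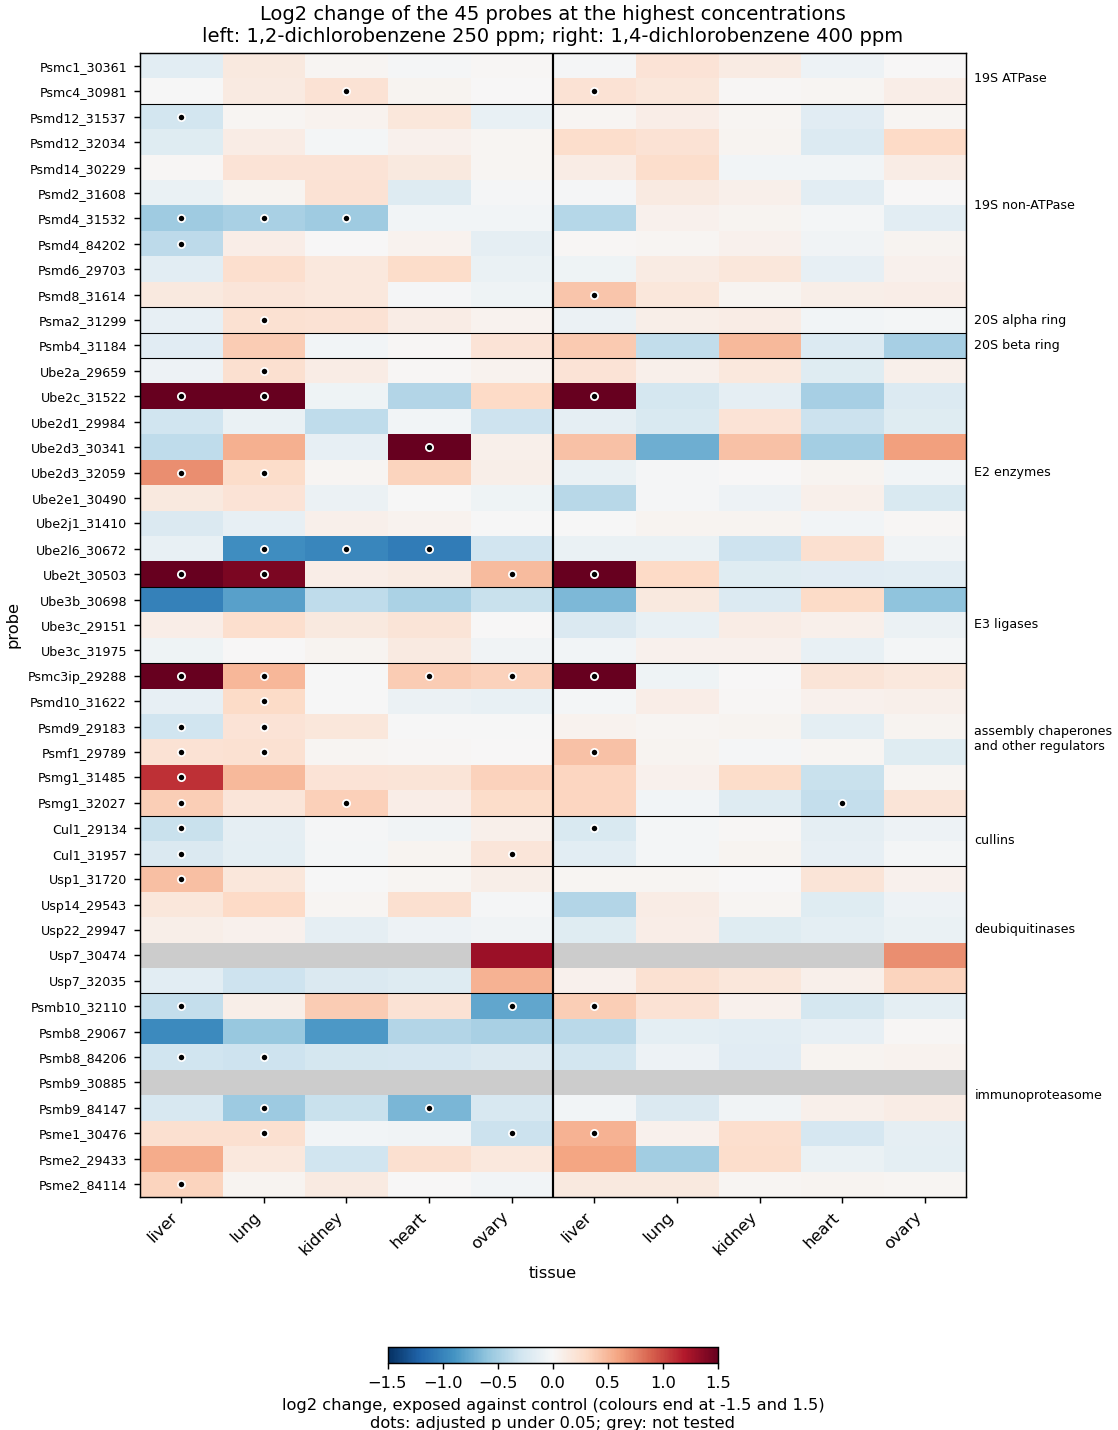
Log2 change at the highest concentration against controls (colour, blue lower and red higher, ending at -1.5 and 1.5) for the 45 member probes (rows, by role) in 5 tissues (columns; 250 ppm 1,2-DCB on the left, 400 ppm 1,4-DCB on the right); a dot marks a probe called by edgeR and grey a probe not tested. Ube2c, Ube2t and Psmc3ip in liver are at the red end, with changes of 5.19, 3.62 and 2.77 on the left, as are Ube2c in lung (1.77) and a scarce Ube2d3 probe in heart (1.55).

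Only 1 and 10 ppm were given for both isomers. The change under 1,2-DCB minus that under 1,4-DCB was called for 0 members in the 10 comparisons of 5 tissues by edgeR and by DESeq2, and the smallest adjusted p of a member by edgeR was 0.194. Of all probes 0% were called at 1 ppm in each tissue, and at 10 ppm 1.58% in liver, 0.363% in lung, 0.22% in kidney, 1.14% in heart and 0% in ovary. At an unadjusted p under 0.05 there were 1 and 4 member probes at 1 and 10 ppm in liver. Member counts were 2 and 0 in lung, 3 and 2 in kidney, 0 and 2 in heart, and 0 and 8 in ovary. The members tested were 43 in each tissue and 44 in ovary. At 10 ppm such a p was found for 352 of all 2601 probes in liver and 194 of 2756 in lung. It was found for 159 of 2729 in kidney, 280 of 2454 in heart and 234 of 2713 in ovary. The intervals are wide for scarce probes. For Ube2c in liver the difference was -0.09 at 1 ppm (95% interval -2.61 to 2.44) and -2.40 at 10 ppm (-4.78 to -0.01), where mouse 203 of the 1,4-DCB group was the high one. For Ube2t it was 0.16 (-1.07 to 1.39) and -0.42 (-1.52 to 0.68). In ovary at 10 ppm Psmb9 differed by -0.84 (-1.36 to -0.32, adjusted p = 0.256 by edgeR). The 1,2-DCB controls there included mouse 4, the highest of them for Psmb9. Of the other immunoproteasome probes, Psmb8 differed by -1.34 and -0.66, Psmb10 by -0.84, Psme1 by -0.35 and Psme2 by 0.48 and -0.25.

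In lung at 250 ppm 1,2-DCB, Ube2c and Ube2t rose as well, 8 other probes rose by 0.21 to 0.50, and the immune members Ube2l6, Psmb9 and Psmb8 fell together with 1 of 2 Psmd4 probes. Of all probes, 17.6% were called higher and 15% lower, and the median change was 0.16 over the members and -0.02 over all probes. Ube2t was at 7.83 to 11.4 CPM in 10 controls (median 9.05) and at 14.4 to 39.8 in 6 exposed lungs (median 23.8), without overlap, a change of 1.41 ± 0.15 (adjusted p = 4.4e-12, edgeR). Ube2c was at 0.618 to 3.08 CPM (median 1.50) and 1.41 to 11.3 (median 3.84). For Ube2c 3 of 6 exposed lungs lay above every control, and the change was 1.77 ± 0.32 (adjusted p = 8.89e-06, edgeR). Psmc3ip went from 21.1 to 38.2 CPM (median 30.4) to 39.9 to 48.1 (median 41.9), without overlap, and rose by 0.50 ± 0.11. Of 34 cell cycle probes, 30 were higher and 0 lower in these lungs, with a median change of 1.49; their part was not tested.

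Psmf1 was at 145.9 to 167 CPM in control lungs (median 155.4) and 168 to 196 in exposed ones (median 184), without overlap, and rose by 0.23 ± 0.05 (adjusted p = 0.00042, edgeR). The other small rises were in the chaperones Psmd10 (0.29) and Psmd9 (0.21), the E2 genes Ube2d3 (0.27) and Ube2a (0.24), the core subunit Psma2 (0.23) and the cap gene Psme1 (0.24, adjusted p = 0.0425 by edgeR). The Psme1 call ended in 8 of 16 fits that each left out 1 lung, that of Ube2d3 without mouse 504 and that of Ube2a without mouse 506R.

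Ube2l6 was at 24.98 to 41.3 CPM in control lungs (median 34.96) and at 9.63 to 26.7 in exposed ones (median 16.7). All but 1 exposed lung lay below every control, and the change was -0.93 ± 0.18 (adjusted p = 2.21e-05, edgeR). Psmb9 was at 47.3 to 95.1 CPM (median 61.3) and 36.5 to 52.004 (median 40.6), a change of -0.54 ± 0.13 (adjusted p = 0.00061, edgeR), with 5 of 6 exposed lungs below every control. Psmb8 fell by 0.31 ± 0.08 (adjusted p = 0.00249, edgeR), while Psmb10 (0.09, interval -0.23 to 0.41) and Psme2 (0.04, interval -0.12 to 0.20) were not called. In the same lungs 7 of 16 interferon response genes fell and 0 rose. Of 13 leukocyte marker probes tested 1 rose and 3 fell, and their summed level was 38248 to 63307 CPM in controls (median 45676) and 38562 to 65098 in exposed lungs (median 55942). The part of leukocytes and of interferon signalling in these changes was not tested.

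Each of these 3 members was also called in lung at a lower concentration of 1,2-DCB. At 100 ppm, where 6.53% of all probes were called, Ube2l6 fell by 0.58, Psmb9 by 0.43 and 1 Psmd4 probe by 0.48, and Ube2t rose by 0.66 (adjusted p = 0.00378, edgeR) with all 5 lungs above every control. At 30 ppm, where 4.57% were called, Ube2l6 fell by 0.65 and Psmb8 by 0.30. Without control mouse 4 the adjusted p was 0.0748 for Ube2l6 and 0.13 for Psmb9 at 100 ppm, and 0.103 for Psmb8 at 30 ppm (edgeR). Of 6 fits at each concentration without control mouse 4 or an exposed mouse, the Ube2l6 and Psmb9 calls at 100 ppm ended in 6, those of Ube2l6 and Psmb8 at 30 ppm in 4, that of Psmd4 at 100 ppm in 2 (mice 403 and 404) and that of Ube2t in 0. By edgeR 0 members were called at 1 and 10 ppm, where 0% and 1.89% of all probes were called. At an unadjusted p under 0.05 there were 9 and 1 of 43 members, and 406 and 300 of all 2756 probes. Without control mouse 4, 2 members were called at 1 ppm.

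Lungs exposed to 1,4-DCB had few called members. Ube2t was at 20.998, 22.1, 19.4, 13.4 and 16.1 CPM at 50 ppm against 7.15 to 13.9 in controls, with all but 1 lung above every control, and rose by 0.88 ± 0.15 (adjusted p = 0.000206, edgeR); of all probes 1.2% were called. It was also the 1 member called at 150 ppm, by 0.71 (adjusted p = 0.00733, edgeR), where 0.472% of all probes were called; without mouse 405 that call ended, while the call at 50 ppm held without each of the 5 exposed mice; controls were not left out here. At 400 ppm, where 2.61% were called, 0 members were called by edgeR and 4 had an unadjusted p under 0.05, as did 404 of all 2756 probes. Ube2t was thus not called at the highest concentration, where the largest rise of any member was 0.30. The changes there were -0.26 for Ube2c (interval -0.95 to 0.44), -0.10 for Ube2l6 (-0.46 to 0.26) and -0.21 for Psmb9 (-0.48 to 0.05).

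In kidney at 250 ppm 1,2-DCB, where 11.7% of all probes were called, Ube2l6 and 1 Psmd4 probe fell and Psmg1 and Psmc4 rose. Ube2l6 was at 6.41, 10.3, 13.02, 6.05 and 4.63 CPM in controls and at 1.88 to 5.23 in 6 exposed kidneys (median 4.31), with overlap. Its change was -0.98 ± 0.28 (adjusted p = 0.0158, edgeR), and the call ended without control mouse 2 or 3. Psmg1 was at 21.4 to 22.6 CPM in controls and 25.8 to 31.8 in exposed kidneys, without overlap, and rose by 0.36 ± 0.11 (adjusted p = 0.0303, edgeR) on 1 probe. That call ended in 5 of 11 fits without 1 kidney (control mice 2, 3, 8 and 10 and mouse 503), and the Psmc4 call in 4 (control mice 2 and 8 and mice 505 and 506R). The scarcer Psmd4 probe fell by 0.54 ± 0.13 (adjusted p = 0.00336, edgeR) while the other changed by 0.01. In lung the 2 Psmd4 probes had likewise changed by -0.48 and 0.10. The Psmd4 call in kidney ended in 0 of 11 fits without 1 kidney, but it ended under at least 1 other alternative. Its change was -0.27 at the weakest. At 400 ppm 1,4-DCB, where 1.03% of all probes were called, 0 members were called by edgeR. An unadjusted p under 0.05 was found for 1 member and for 250 of all 2729 probes.

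In heart at 250 ppm 1,2-DCB, where 8.88% of all probes were called, Ube2l6 and Psmb9 fell and Psmc3ip and 1 Ube2d3 probe rose. Ube2l6 was at 5.25 to 23.2 CPM in 10 controls (median 9.10) and 4.53 to 5.62 in 7 exposed hearts (median 4.78), a change of -1.05 ± 0.28 (adjusted p = 0.0082, edgeR). Psmb9 was at 8.59 to 30.1 CPM (median 11.54) and 5.68 to 10.7 (median 7.87), a change of -0.69 ± 0.18 (adjusted p = 0.00778, edgeR). Below every control lay 4 of 7 exposed hearts for Ube2l6 and 5 of 7 for Psmb9. Both calls held without control mouse 4, the highest control for Psmb9, and ended in 0 of 17 fits without 1 heart. The Psmb9 call ended under at least 1 other alternative, with a change of -0.46 at the weakest, while that of Ube2l6 held in every one. The Ube2d3 call (1.55 ± 0.52) rested on a scarce probe and ended in 11 of 17 fits without 1 heart, and the Psmc3ip call ended without mouse 505. Of 16 interferon response genes tested, 4 fell and 0 rose in heart, and 4 fell and 0 rose in kidney; their part in the Ube2l6 and Psmb9 changes was not tested.

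**Figure D4:**
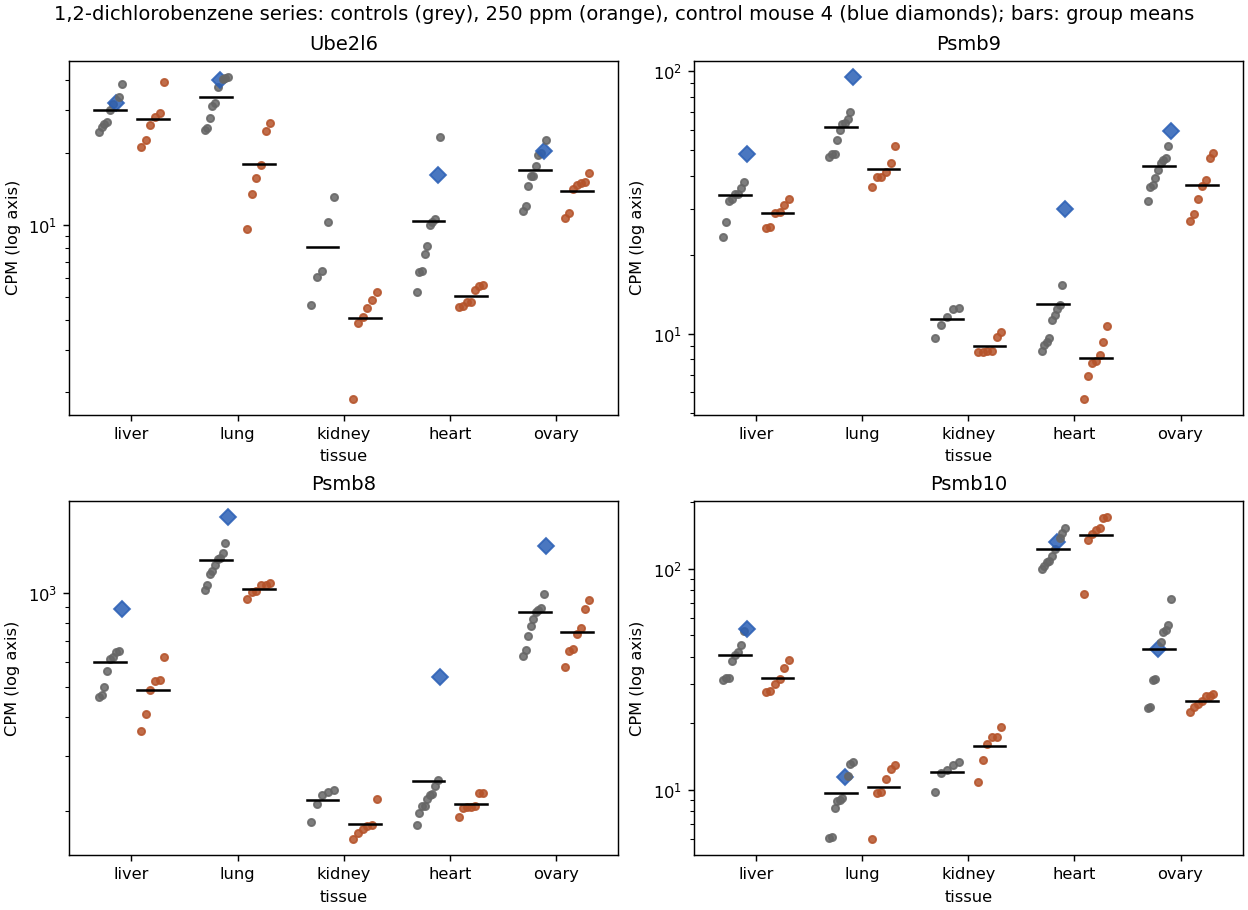
Levels of Ube2l6, Psmb9, Psmb8 and Psmb10 in each mouse (vertical axis, CPM on a log scale) at 0 and 250 ppm 1,2-DCB in 5 tissues; points are mice (controls grey, exposed orange), bars group means, and blue diamonds control mouse 4, which had no kidney library. Ube2l6 means are 34.3 and 17.97 CPM in lung and 10.4 and 5.03 in heart, and mouse 4 is the highest control for Psmb8 and Psmb9 in liver, lung, heart and ovary.

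Control mouse 4 of the 1,2-DCB series had the highest Psmb8 and Psmb9 of its control group in all 4 tissues in which it had a library. Psmb8 was at 890 CPM in its liver, 1751 in its lung, 1413 in its ovary and 538 in its heart, where the other controls lay between 181 and 252. Psmb9 was at 48.6, 95.1, 59.1 and 30.1 CPM in the same tissues.

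Hearts at 150 ppm 1,4-DCB had 5 called members, all lower, where 27.2% of all probes were called. Psmb10 was at 93.7, 88.8, 92.4, 131.01 and 26.6 CPM against 104 to 141.7 in controls (median 128.7), and fell by 0.52 ± 0.19 (adjusted p = 0.0349, edgeR). Mouse 405 was the lowest and mouse 404 the highest of the group for Psmb10, Psme1 (15.95 and 40.6 CPM) and Ube2a (126.8 and 213 CPM). Psme1 fell by 0.44, Psmc1 and Ube2a by 0.26 each and 1 Cul1 probe by 0.15. Without mouse 405 0 members and 1.82% of all probes were called, and without mouse 404 8 members and 34.5%. Without mouse 401, 402 or 403 the count was 1, 2 and 2, and of 5 fits that each left out 1 exposed heart the Psmb10 and Ube2a calls ended in 4, that of Psmc1 in 3, and those of Psme1 and Cul1 in 2 each. At 400 ppm, where 13% of all probes were called, 1 member was: Psmg1 went from 11.4 to 14.3 CPM (median 13.7) to 8.44 to 11.49 and fell by 0.36 ± 0.11 (adjusted p = 0.0204, edgeR). That call ended without exposed mouse 503 or 505.

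In ovary at 250 ppm 1,2-DCB, Ube2t, Psmc3ip and 1 Cul1 probe rose and Psmb10 and Psme1 fell, where 15.9% of all probes were called (8.22% higher, 7.7% lower). Ube2t was at 65.6 to 111.03 CPM in 10 controls (median 88.1) and 104 to 144.5 in 7 exposed ovaries (median 118.3), of which 6 lay above every control. Its change was 0.48 ± 0.11 (adjusted p = 0.00252, edgeR). Psmb10 was at 23.5 to 72.9 CPM (median 45.1) and 22.4 to 27.1 (median 25.2), a change of -0.79 ± 0.24 (adjusted p = 0.0162, edgeR) between overlapping groups. Psme1 fell by 0.33 (adjusted p = 0.0423, edgeR), and that call ended in 12 of 17 fits without 1 ovary. The Psmc3ip call ended in 4 (control mice 1 and 9 and mice 503 and 506R). The Cul1 call ended in 0 of the 17, but it ended under at least 1 other alternative. Of 33 cell cycle probes, 13 were higher and 0 lower in ovary, with a median change of 0.36; their part was not tested. At 400 ppm 1,4-DCB, where 0.479% of all probes were called, 0 members were called by edgeR. An unadjusted p under 0.05 was found for 2 members and for 241 of all 2713 probes.

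Dbp, an output gene of the circadian clock, was higher at 250 ppm 1,2-DCB in every tissue, by 1.70 in liver, 1.98 in lung, 2.12 in kidney, 2.17 in heart and 1.22 in ovary, and at 400 ppm 1,4-DCB in lung, heart and ovary, by 1.97, 2.00 and 1.11. The labels give no hour of collection. With each library's Dbp level as a covariate, 20 of the 75 member calls ended, among them Ube2l6 in kidney (-0.60, adjusted p = 0.362) and Psmb10 in ovary (-0.29, adjusted p = 0.61, both by edgeR). The calls of Ube2c, Ube2t and Psmc3ip in liver at 250 and 400 ppm held in this and every other alternative that was run.

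Whether a member changed unequally in 2 tissues was tested in 1 fit over all 5 tissues at the highest concentrations, each tissue against liver. That fit scaled all tissues together, which left the median difference of all probes at 0.15 to 0.19, so counts are given beside those with each tissue scaled on its own (median -0.06 to 0.04). For 1,2-DCB 21 of 44 members differed in lung (18 above the liver change, 3 below), and 13 (8 and 5) with own scaling; of all probes 33.5% and 27.1% differed. The counts were 19 (16 and 3; 38.2% of all probes) in kidney, 19 (15 and 4; 36.7%) in heart and 19 (16 and 3; 38.7%) in ovary, and with own scaling 12 (6 and 6; 28.7%), 15 (8 and 7; 29.3%) and 12 (4 and 8; 32.7%). For 1,4-DCB they were 11 (7 and 4; 20.9%) in lung, 9 (5 and 4; 19.1%) in kidney, 7 (1 and 6; 26.1%) in heart and 7 (2 and 5; 22.1%) in ovary, and with own scaling 4 (0 and 4; 17.1%), 7 (1 and 6; 13.8%), 9 (0 and 9; 24.3%) and 7 (0 and 7; 16.6%). Tissues came from the same mice; with the mouse as a paired block, fitted per compound, the 1,2-DCB counts were 14, 15, 14 and 13 and the 1,4-DCB counts 15, 10, 9 and 10.

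Ube2c, Ube2t and Psmc3ip rose less than in liver in all 8 comparisons under both scalings. For 1,2-DCB the differences of Ube2c were -3.23 in lung, -5.03 in kidney, -5.45 in heart and -4.65 in ovary, and those of Psmc3ip -2.07, -2.55, -2.18 and -2.17. For Ube2t they were -2.01, -3.29, -3.29 and -2.89. Psmf1 under 1,4-DCB was below its liver change in all 4 tissues, with differences of -0.25 in lung, -0.30 in kidney, -0.29 in heart and -0.48 in ovary. Ube2l6 under 1,2-DCB was below its liver change in heart under both scalings (-0.73, adjusted p = 0.033, and -0.94, adjusted p = 0.0068, edgeR). In lung and kidney that difference was called only with own scaling (-0.82 and -0.87), and by the common scaling it was -0.63 and -0.65.

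Unexposed tissues already differed in most members, as in most probes of the panel. With each tissue set against the mean of the other 4 in the 0 ppm libraries, 39 of 43 members were called in liver (86.7% of all probes), 36 in lung (82.5%), 29 in kidney (74.1%), 38 in heart (83.4%) and 34 in ovary (85.2%). Members were more often higher than lower in liver (30 and 9) and heart (28 and 10) and more often lower in lung (8 and 28), kidney (8 and 21) and ovary (8 and 26). Of all probes 39.6% were called higher and 47.1% lower in liver, 41.1% and 42.3% in heart, and 41.2% and 41.4% in lung. The shares were 36.9% and 37.2% in kidney and 40% and 45.2% in ovary. The median over the members was 0.45 in liver, -0.49 in lung, -0.12 in kidney, 0.34 in heart and -0.28 in ovary, beside -0.18, -0.05, -0.06, -0.04 and -0.10 over all probes. With DESeq2's size factors in place of TMM, the median of all probes moved to -0.19 in heart and 0.05 in ovary, and that of the members to 0.19 and -0.13; heart then had 24 higher and 13 lower and ovary 12 and 24.

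Levels in unexposed tissues are means ± SD of CPM on a scale set over all tissues, which is not that of the values above, from 16 livers, 20 lungs, 11 kidneys, 20 hearts and 20 ovaries. Psmb10 was at 209 ± 27.7 in heart, 80.5 ± 12.8 in liver, 16.8 ± 6.95 in ovary, 9.52 ± 1.36 in kidney and 7.00 ± 1.72 in lung. The ranges of 1 SD of ovary and kidney, and of kidney and lung, overlapped, and heart was 3.59 above the mean of the other tissues. Psmb8 had another order: 1154 ± 243 in liver, 897 ± 154.02 in lung, 367 ± 129.2 in heart, 345 ± 79.6 in ovary and 177 ± 57.5 in kidney. Here those of liver and lung, and of heart and ovary, overlapped. Ube2l6 was at 59.3 ± 8.34 in liver, 23.9 ± 5.52 in lung, 15.8 ± 6.52 in heart, 6.91 ± 1.64 in ovary and 5.78 ± 1.92 in kidney, with overlap between lung and heart and between ovary and kidney, and liver stood 2.41 above the other tissues.

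Ube2c was at 12.3 ± 2.95 CPM in ovary, 3.73 ± 2.66 in kidney, 1.44 ± 0.57 in lung, 1.34 ± 1.39 in liver and 0.972 ± 0.67 in heart, and the ranges of 1 SD of the last 4 overlapped. Ube2t was at 42.1 ± 8.48 in ovary and 33.9 ± 5.67 in heart, and at 5.26 ± 3.65 to 7.42 ± 1.34 in the other 3 tissues. Psmc3ip was lowest in liver, at 3.96 ± 0.917, and lay between 23.5 ± 3.99 in kidney and 35.1 ± 7.72 in ovary elsewhere. Ube2d1, an E2 used by many ligases, lay 1.41 above the other tissues in heart, and Ube2a, an E2 of DNA damage tolerance, 1.32 above in heart and at -1.09 in ovary.

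**Figure D5:**
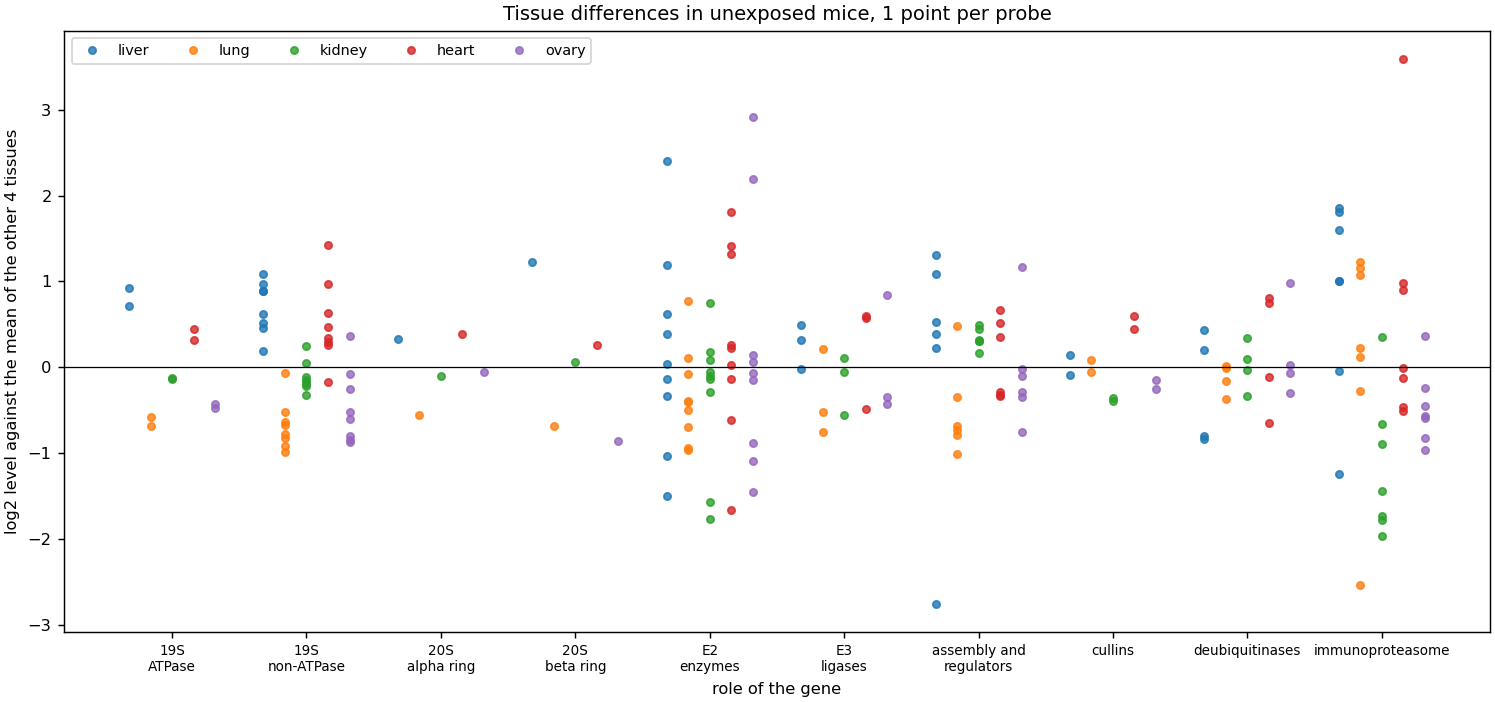
Level of each member probe in each unexposed tissue against the mean of the other 4 tissues (vertical axis, log2 difference) by role of the gene (horizontal axis); each point is 1 probe, coloured by tissue. The highest point is Psmb10 in heart at 3.59, and the lowest are Psmc3ip in liver at -2.76 and Psmb10 in lung at -2.53.

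The 18 probes called in 0 of the 50 comparisons were Psmd2, Psmd6, Psmd14, 1 of 2 Psmd12 probes, Psmb4, Ube2d1, Ube2e1, Ube2j1, Ube3b, both Ube3c probes, Usp14, Usp22, both Usp7 probes and the scarcer probes of Psmb8, Psmb9 and Psme2. The scarcer Usp7 probe had counts in 79 of 360 libraries and was tested in ovary only, with a change of 1.28 ± 0.47 at 250 ppm 1,2-DCB (adjusted p = 0.0522, edgeR) and 0.69 ± 0.48 at 400 ppm 1,4-DCB. The scarcer Psmb9 probe had counts in 7 libraries and was tested in no tissue, so a change in it was not detectable at this depth.

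The panel had 32 probes for other ubiquitin genes, from a list of ligases, adaptors and shuttle factors. In liver at 250 ppm 1,2-DCB, 25.1% of all probes were called higher and 24.6% lower. Of the 30 listed probes tested there, 10 were higher and 6 lower, with a median change of 0.06. The 4 with the smallest p were Dtl (4.74), a CUL4 adaptor of S phase, Skp2 (1.95), an F-box adaptor of Cul1 ligases, Cdc20 (5.71), the mitotic activator of the ligase that Ube2c serves, and Sqstm1, a ubiquitin-binding autophagy receptor, which fell by 0.78. Dtl was at 1.22 ± 0.582 CPM in controls and 32.4 ± 10.6 in exposed livers (mean ± SD, n = 9 and 6). Liver at 400 ppm 1,4-DCB had 5 higher and 2 lower of 30, where 18% of all probes were called higher and 13.6% lower. Its first 4 were Dtl (3.66), Skp2 (1.46), Fbxo5 (1.44), an inhibitor of the anaphase-promoting complex, and Keap1 (0.32), the ligase adaptor that keeps the antioxidant factor NRF2 low. Lung at 250 ppm 1,2-DCB had 7 higher and 5 lower of 31, led by Dtl (2.40), Cdc20 (1.85), the interferon-induced ligase Herc6 (-0.34) and Nedd8 (0.29), the ubiquitin-like activator of cullins. Of all probes, 17.6% were called higher and 15% lower in these lungs. Of the other ubiquitin genes 3 were higher and 1 lower in ovary, 0 and 1 in kidney, and 0 and 2 in heart. The shares of all probes called higher and lower at 250 ppm 1,2-DCB were 8.22% and 7.7% in ovary. In kidney they were 6.78% and 4.95%, and in heart 4.07% and 4.81%.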

How the data were processed

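TempO-Seq reads pairs of ligated detector probes, so each value measures 1 short stretch of an RNA. The deposited table holds counts of reads per probe and library. Per the submitters' processing notes Bowtie 1.3.1 was used; the manifest, genome build and counting rules are not given in the sources used here. For 59 probes, none a member, the authors' counts were whole multiples of a factor from 2 to 21, read as an attenuation factor that had been multiplied back. Of 360 libraries, the 34 that the labels mark as not used in analysis (21 kidney, 11 liver, 2 lung) were left out. Of 824 pairs of libraries within a group 0 were identical.

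The members and gene lists were chosen with earlier results of these data known. In R 4.3.3, edgeR 4.0.16 filtered low counts (filterByExpr), scaled by TMM and fitted 12 groups per tissue with its quasi-likelihood test, Benjamini-Hochberg adjusted within each comparison; DESeq2 1.42.0 was an alternative. The fits were tested on simulated counts. Members called in a comparison could be named, with sample values for the 12 largest changes with a mean of 20 counts or more; 15 reference members could be named anywhere, and up to 4 genes of another list by smallest p. Same-numbered libraries are tissues of 1 mouse; their deviations correlated at a median of 0.026 to 0.068 per tissue pair. Alternatives were other scaling, no filter, undone factors, all 360 libraries, 1 compound at a time, a Dbp covariate, a mouse block and leaving out each mouse. Reads carry no molecular identifiers, so depth limits scarce probes beyond what counts alone show.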

Additional observations from a re-analysis of the deposited data

Results flagged for a closer look

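A library stood apart from the rest of its group in 9 cases, which is 8.33% of the groups of 4 to 10 libraries tested (called members at the highest concentrations). Chance, at about 1 in 20 groups, would pick out 5.4 of these groups. Control mouse 4 of the 1,2-DCB series accounts for 3 of them: Psmb8 at 890 CPM in liver, Psmb9 at 95.1 in lung and Psmb9 at 30.1 in heart. Liver control mouse 2 of that series had 122.7 CPM of Psmd4 and 188 of Cul1, both the highest of the group, and control mouse 5 had 1.98 CPM of Ube2c where the other 8 lay at or below 0.562. Mouse 506R at 250 ppm had the lowest value of its liver group on the other, more abundant Cul1 probe, 288 CPM. The rest of that group lay between 332.7 and 350.7, and values of the Cul1 probes are not on 1 scale. The same mouse had the highest Psme1 of its group in ovary, 60.001 CPM. Liver mouse 501 at 400 ppm 1,4-DCB had the highest Psme1, 40.9 CPM, of a group that otherwise lay between 35.4 and 36.98.

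Changes differed between tissues by a test of the difference itself. Against liver at 250 ppm 1,2-DCB, 21 members differed in lung (33.5% of all probes) and 19 each in kidney (38.2%), heart (36.7%) and ovary (38.7%). At 400 ppm 1,4-DCB, 11 differed in lung (20.9% of all probes), 9 in kidney (19.1%), and 7 each in heart (26.1%) and ovary (22.1%). With each tissue scaled on its own the counts were 13, 12, 15 and 12 for 1,2-DCB and 4, 7, 9 and 7 for 1,4-DCB. With the mouse as a paired block they were 14, 15, 14 and 13 for 1,2-DCB and 15, 10, 9 and 10 for 1,4-DCB. The values, the members concerned and the effect of scaling are given with the comparison above.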

How the results depend on the processing

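Across the alternatives 0 member calls changed sign, and 41 of 75 ended under at least 1: 30 without 1 mouse, 20 with the Dbp covariate, 19 with all libraries, 13 with libraries of the same compound only, 8 with no filter on low counts, 3 with attenuation factors undone, 2 with RLE scaling and 1 with DESeq2. Counts below are of members called and are given where they moved by more than 1.5 times; the cause was not tested. With all libraries, 1,2-DCB gave 3, 0, 3 and 9 in liver at 1, 30, 100 and 250 ppm, 7, 1 and 2 in lung at 1, 30 and 100 ppm, and 2, 6 and 7 in kidney at 30, 100 and 250 ppm. The isomer difference in lung at 1 ppm gave 1, and the difference from liver gave 13 in lung and 11 in ovary for 1,2-DCB and 4 each in lung, kidney and ovary for 1,4-DCB. With the Dbp covariate liver had 0 at 30 ppm 1,2-DCB and 2 at 150 ppm 1,4-DCB, lung 0 at 30 ppm 1,2-DCB, kidney 1 at 250 ppm 1,2-DCB and 1 at 1 ppm 1,4-DCB, heart 1 at 250 ppm 1,2-DCB and 4 at 400 ppm 1,4-DCB, and ovary 1 at 250 ppm 1,2-DCB. With the same compound only, liver at 150 ppm 1,4-DCB had 1, lung 0 and 1 at 30 and 100 ppm 1,2-DCB and 1 at 400 ppm 1,4-DCB, and heart 2 at 150 ppm 1,4-DCB. With no filter, liver at 30 ppm 1,2-DCB and heart at 150 ppm 1,4-DCB had 2 each; with factors undone that liver group had 2, and with DESeq2 3, while heart at 30 ppm 1,2-DCB had 1. RLE scaling gave 6 in lung and 5 in kidney for the 1,4-DCB difference from liver. Scaling each tissue on its own, an alternative chosen after seeing the data, gave 13, 12 and 12 in lung, kidney and ovary for 1,2-DCB and 4 in lung for 1,4-DCB.

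Leaving out each mouse in turn at the highest concentrations of 1,2-DCB gave 16 to 18 in liver, 13 to 16 in lung, 1 to 5 in kidney (1 without control mouse 2), 3 to 4 in heart and 3 to 6 in ovary (3 without mouse 503). For 1,4-DCB it gave 9 to 10 in liver, 0 to 2 in heart (0 without mouse 503 or 505, 2 without control mouse 2 or mouse 504) and 0 in lung, kidney and ovary. Added after seeing the data, leaving out control mouse 4 or an exposed mouse gave 0 to 2 in liver at 30 ppm 1,2-DCB (0 without control 4, 301 or 304, 2 without 303) and 5 to 6 at 100 ppm. Lung had 0 to 1 at 30 ppm and 1 to 2 at 100 ppm 1,2-DCB, and 2 at 1 ppm without control mouse 4; at 50 and 150 ppm 1,4-DCB it had 1 to 1 and 0 to 1. Heart at 150 ppm 1,4-DCB had 0 to 8, and heart, ovary and liver at the other 1,2-DCB concentrations had 0 without control mouse 4. With the mouse as a replicate block in the 5-tissue fit of unexposed mice, 39 members were called in liver, 35 in lung, 28 in kidney, 38 in heart and 34 in ovary, and in the paired fit of differences from liver the counts were those given above.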
